A study of Mus musculus with 3 samples.

Results

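The 10 heat shock chaperones described here are the genes Hspa1a, Hspa1b, Hspb1, Hsp90aa1, Dnajb1 and Hsph1, grouped as inducible, and Hspa8, Hspa5, Hsp90ab1 and Dnaja1, grouped as constitutive. They were chosen by name, and all 10 were present among the 21507 genes shared by the deposited tables of cells and nuclei. Chaperones bind unfolded or nascent protein chains and help them to fold. When proteins unfold, as on heating, heat shock factor HSF1 binds heat shock elements in the promoters of the inducible genes and their transcription rises within minutes, whereas constitutive members are made in unstressed cells. Partners of the J-domain family (the DNAJ proteins) pass clients to HSP70 proteins, HSP110 proteins such as that of Hsph1 exchange their nucleotide, and HSP90 proteins act later on signalling proteins.

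The study set 2 ways of preparing mouse lung for droplet-based 10x Chromium sequencing side by side, with 1 library of whole cells and 2 of isolated nuclei, all from C57Bl/6J wild type animals. For the cells, freshly taken tissue was held for 30 min at 37 C with collagenase and DNAse, dissociated mechanically and cleaned on an Optiprep gradient. The nuclei came from lung of adult mice that was snap-frozen at sacrifice, then lysed and minced in ice-cold buffer with RNase inhibitor, dissociated mechanically and filtered. Warm digestion, fresh or frozen tissue, and cytoplasm or nucleus therefore all differed together between the groups and cannot be told apart, and the age and sex of the mice behind each library are not given in the labels. No separate animals are named for the libraries, so p-values measure only the spread between these libraries, which may be technical.

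The library of cells held 11934 barcodes with a median of 2864 UMIs (unique molecular identifiers, 1 per captured transcript), and the nucleus libraries held 6849 and 9806 barcodes with medians of 4152 and 2521 UMIs. Libraries shared between 21 and 24 barcode sequences per pair. Barcodes were grouped into cell classes from marker genes, without using any chaperone as a clustering feature. In the library of cells 21 classes held at least 50 barcodes, and 16 of these had at least 50 barcodes in all 3 libraries. Clusters with markers of unrelated lineages held 495 barcodes in cells and 2 and 30 in nuclei, and 1009 barcodes of nucleus library 2 were in clusters left unnamed, most of them in a cluster of 1022 nuclei led by Itprid1, Wdr72 and Bmpr1b. These barcodes are in the whole-library values and in no class. The shares of classes also differed between preparations. Alveolar macrophages held 18.6% of barcodes in cells, against 2.26% and 4.44% in the nucleus libraries. Type 2 pneumocytes held 4.09% in cells, against 19.9% and 16.5% in nuclei. Whole-library values include such differences. Levels are CPM, the UMI counts of a gene scaled to 1000000 counts of a library or of a class in a library, and the text names the 2 nucleus libraries nuclei 1 and nuclei 2.

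The promoters of Hspa1a, Hspa1b and Hspb1 are shown because the HSP70 pair had the largest differences between preparations and Hspb1 varied most between cell classes. RefSeq promoter windows (GRCm38.p6) were at hand for 7 of the 10 members. Hspa1a lies at chr17:34969190-34972156 and Hspa1b at chr17:34956436-34959238 (mm10, minus strand), each with 1 exon, 9951 bases apart. The 250 bases before each start are given 5′ to 3′ on the gene's strand, with the fixed letters of the motif GAANNTTC in capitals.
Hspa1a, chr17:34972157-34972406 (minus strand): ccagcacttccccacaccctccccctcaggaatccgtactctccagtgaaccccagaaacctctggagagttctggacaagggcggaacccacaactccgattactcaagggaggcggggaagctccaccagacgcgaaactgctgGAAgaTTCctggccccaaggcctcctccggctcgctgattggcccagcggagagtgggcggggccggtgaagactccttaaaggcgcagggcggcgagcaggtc
Hspa1b, chr17:34959239-34959488 (minus strand): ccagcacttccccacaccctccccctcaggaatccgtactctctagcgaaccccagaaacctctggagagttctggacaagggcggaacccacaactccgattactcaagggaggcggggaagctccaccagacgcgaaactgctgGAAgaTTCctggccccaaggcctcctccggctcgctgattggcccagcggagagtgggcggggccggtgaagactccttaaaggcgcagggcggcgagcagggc
Hspb1, chr5:135887669-135887918 (plus strand): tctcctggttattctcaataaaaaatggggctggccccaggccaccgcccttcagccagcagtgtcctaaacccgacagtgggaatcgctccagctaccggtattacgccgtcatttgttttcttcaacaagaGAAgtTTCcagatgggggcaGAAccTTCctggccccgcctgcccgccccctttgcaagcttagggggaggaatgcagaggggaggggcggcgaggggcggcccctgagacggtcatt
The Hspa1a and Hspa1b windows were identical at 247 of 250 bases, and differed as C44T, T47C and T249G, written as the Hspa1a base, the position counted from 1 at the 5′ end of the window, and the Hspa1b base. Each held the motif once, starting 104 bases before the gene. Hspb1 (chr5:135887919-135889563, plus strand) held it at 117 and 97 bases before its start.

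Motif searches covered both strands of the 250 bases. GAANNTTC was found in 6.69% and its inverted form TTCNNGAA in 7.17% of 32851 windows of all genes, and 12.8% held either. GAANNTTC in Dnaja1, TTCNNGAA in Hsph1 and the ER stress response element (CCAAT and CCACG with 9 unspecified bases between, in 0.113% of windows) in Hspa5 are given as stretches of 30 bases with the fixed letters in capitals, to show letter matches of different kinds.
Dnaja1, chr4:40722333-40722362 (plus strand): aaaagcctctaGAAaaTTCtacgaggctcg
Hsph1, chr5:149636351-149636380 (minus strand): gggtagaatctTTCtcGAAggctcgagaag
Hspa5, chr2:34772019-34772048 (plus strand): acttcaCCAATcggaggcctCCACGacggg
These motifs started 124, 33 and 65 bases before a RefSeq start of Dnaja1, Hsph1 and Hspa5. Neither form of the heat shock motif was in the windows of Dnajb1 or Hspa5, or in those at the other RefSeq starts of Dnaja1. A match of these letters is a description of the window and not a measured binding site.

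In whole libraries all 10 chaperones were higher in cells than in nuclei, by 2.73-fold (Hsp90aa1) to 73.9-fold (Hspa1a). The stress-induced HSP70 genes Hspa1a and Hspa1b and their partner Dnajb1 had the largest changes (at least 14.97-fold), and the other 7 members changed by at most 7.26-fold. These sizes depended on the nucleus library, given here with no test. Hspa1a was 45.8-fold higher than in nuclei 1 alone and 136-fold higher than in nuclei 2 alone, and Hspa1b 36.5- and 185-fold. Hspb1 was 3.20- and 7.01-fold higher, and Hsph1 2.75- and 5.62-fold. Against nuclei 2 alone Hspa8 reached 10.01-fold and Hsp90ab1 8.16-fold. Of all genes tested in this comparison, 16.4% were higher and 8.42% lower in cells (edgeR quasi-likelihood test, Benjamini-Hochberg adjusted p under 0.05), 26.5% were at least 2-fold higher, and 40% had a level in cells above both nucleus libraries. DESeq2 also called all 10 higher, against 17% of genes. The median log2 fold was 3.02 over the 6 inducible members and 2.80 over the 4 constitutive members, against -0.03 over all 19806 genes tested.

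Hspa1a, a stress-induced cytosolic HSP70, had 58.6 CPM in cells, against 1.30 and 0.442 CPM in nuclei 1 and 2. Those nuclear levels rest on 36 and 12 counts, and those in cells on 2108. The cells lay above both nucleus libraries (log2 fold 6.21 ± 0.62 SE, edgeR adjusted p = 0.00441). Hspa1b, its near-identical neighbour, had 85.2 CPM in cells, against 2.42 and 0.479 CPM in nuclei (log2 fold 6.00 ± 0.82 SE, edgeR adjusted p = 0.00645). Nuclei 1 exceeded nuclei 2 by 5.04-fold for Hspa1b and 2.94-fold for Hspa1a, so the nucleus libraries were further apart here than for any other member. The coding sequences of these genes are identical at 99.4% of aligned positions and their 3′ untranslated regions at 48.1%. Reads in the coding part that cover no differing position cannot be told apart. The counts of each gene alone are uncertain to the extent that such reads were counted.

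Dnajb1, the J-domain partner that feeds clients to HSP70, had 80.4 CPM in cells, against 7.03 and 4.90 CPM in nuclei (log2 fold 3.90 ± 0.38 SE, edgeR adjusted p = 0.00437). This was the third largest change among the members. Hspb1, a small heat shock protein that holds unfolded chains and binds actin, had 63.5 CPM in cells, against 21.0 and 10.7 CPM in nuclei (log2 fold 2.14 ± 0.47 SE, edgeR adjusted p = 0.0238). Hsph1, the HSP110 nucleotide exchange factor, had 87.5 CPM in cells, against 33.8 and 18.5 CPM in nuclei (log2 fold 1.89 ± 0.45 SE, edgeR adjusted p = 0.0290). Hsp90aa1, the stress-inducible HSP90, had 394 CPM in cells, against 161 and 163 CPM in nuclei (log2 fold 1.45 ± 0.34 SE, edgeR adjusted p = 0.0285). Hsp90aa1 had the smallest change of all 10 members and the smallest gap between its nucleus libraries.

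Among constitutive members, Hspa8, the housekeeping cytosolic HSP70, had 580 CPM in cells, against 111 and 68.8 CPM in nuclei (log2 fold 2.84 ± 0.45 SE, edgeR adjusted p = 0.00909). Hsp90ab1, the housekeeping HSP90, had 924 CPM in cells, against 150 and 135 CPM in nuclei (log2 fold 2.86 ± 0.38 SE, edgeR adjusted p = 0.00605). Hspa5, the HSP70 of the endoplasmic reticulum also called BiP, had 389 CPM in cells, against 61.5 and 68.1 CPM in nuclei (log2 fold 2.76 ± 0.32 SE, edgeR adjusted p = 0.00464). In whole libraries these 3 housekeeping chaperones thus changed by nearly the same factor, 6.75 to 7.26-fold. Within the 16 cell classes their median log2 folds were lower, at 2.26 for Hspa8 and Hspa5 and 2.53 for Hsp90ab1. Dnaja1, a J-domain partner of Hspa8, had 292 CPM in cells, against 110 and 82.3 CPM in nuclei (log2 fold 1.76 ± 0.37 SE, edgeR adjusted p = 0.0211). No member's nuclear range reached the level in cells.

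**Figure D1:**
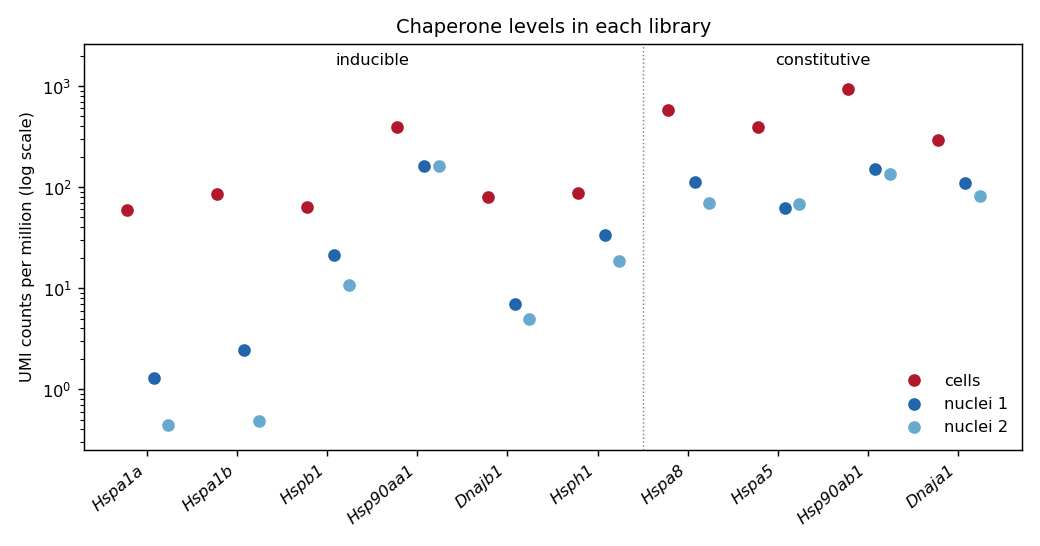
Level of each chaperone in each library, in CPM on a log axis, with cells (red) left of nuclei 1 (dark blue) and nuclei 2 (light blue), and 1 point per library. Every red point lies above both blue points, and the gap is widest for Hspa1a (58.6 CPM in cells, against 1.30 and 0.442 CPM in nuclei) and Hspa1b.

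Replicate spread in this test came from the 2 nucleus libraries alone, and the single library of cells was taken to have the same spread. The edgeR test also pools information on spread over genes. The size of an adjusted p therefore depends on that pooling and should not be compared between cell classes. Gene span was related to the preparation across all genes, and its part in these results was not tested: of tested genes under 10 kb 28.8% were higher in cells with a median log2 fold of 0.86, against 11.9% and -0.23 of longer genes. Hsp90aa1, Hsph1 and Dnaja1, which span 12124, 22090 and 15000 bases, are the 3 longer members, and the other 7 are shorter. Spans cover all annotated transcripts of a gene. The principal transcript of Hsp90aa1 has only 3281 bases of exon and 2510 of intron, so its place among longer genes depends on the annotation. Hspa1a and Hspa1b have no intron, and 29.4% of 540 tested genes with 1 exon in every transcript were higher in cells, with a median log2 fold of 1.13. Hspa1a overlaps Gm20481 on the opposite strand over 2225 bases, and Dnaja1 (chr4:40722150-40737149) overlaps Smu1 over 608 bases, also on the opposite strand. Since the use of strand in counting is not given in the sources used here, reads in those overlaps cannot be assigned with certainty. Smu1 had 2092 counts in cells, against 702 and 730 in nuclei, where Dnaja1 had 10492, against 3041 and 2233.

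Within cell classes, some of which pool related cell types in shares that can differ between preparations, 133 of 158 tested pairs of a member and a class were higher in cells and 0 were lower (edgeR adjusted p under 0.05). Over all genes 14% of such pairs were higher and 7.27% lower, and within single classes other than pericytes the share of genes higher ran from 9.03% in smooth muscle or myofibroblasts to 24.7% in alveolar macrophages. The level in cells lay above both nucleus libraries in every one of the 16 classes for 9 of the 10 members, and for Hspb1 in 13 classes, against 40.6% of all gene and class pairs. At least 2-fold higher values were seen in 151 of the 158 pairs, against 25.1% of all pairs. Inducible members passed in 73 of 94 tested pairs and constitutive members in 60 of 64. DESeq2 gave 99 of 144 pairs higher and 0 lower, with 6.73% of all pairs higher.

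Hspa1a passed in 14 of 15 tested classes and Hspa1b in 15 of 16, but their nuclear counts per class were very small, from 0 to 9 and from 0 to 19 over both nucleus libraries together. Among classes with more than 3 nuclear counts, the log2 fold of Hspa1a ran from 4.95 in type 1 pneumocytes (AT1, the flat cells of the gas exchange surface) to 6.94 in general capillary endothelium. In AT1, Hspa1a had 29.04 CPM in cells, against 1.72 and 0.241 CPM in nuclei. In type 2 pneumocytes (AT2, which make surfactant), Hspa1b had 80.7 CPM in cells, against 1.37 and 0.753 CPM in nuclei (log2 fold 6.12, edgeR adjusted p = 1.65e-08), in a class where 21.4% of genes were higher. Where both nucleus libraries had no count, a floor of 3 counts over the group gave at least 22.7-fold higher Hspa1a in dendritic cells, at least 7.95-fold higher Hspa1a in B cells, at least 36.7-fold higher Hspa1b in interstitial macrophages and at least 23.4-fold higher Hspa1b in adventitial fibroblasts. In ciliated cells Hspa1a had 12 counts in cells, against 0 and 1 in nuclei, and was not tested (ratio 94.5, counting interval 14.0 to 4041). DESeq2 passed Hspa1a in 8 classes.

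Dnajb1 passed in 15 of 16 classes, with log2 folds, among the 15 classes with more than 3 nuclear counts, from 2.53 in adventitial fibroblasts to 5.02 in ciliated cells, the airway cells with motile cilia. In dendritic cells Dnajb1 had 160 counts in cells, against 2 and 0 in nuclei (ratio 33.0, counting interval 8.99 to 275.0). Ciliated cells had 165 CPM of Dnajb1 in cells, against 13.5 and 3.43 CPM in nuclei. Hspa8, Hspa5, Hsp90ab1 and Dnaja1 likewise passed in 15 of 16 classes each. Their largest changes were in alveolar macrophages, the phagocytes of the airspace, for Hspa8 (log2 fold 3.52, 838 CPM in cells against 137 and 68.4 in nuclei), Hspa5 (3.39) and Hsp90ab1 (3.45). Dnaja1 was the most even member, with log2 folds from 1.48 in AT2 to 2.13 in smooth muscle or myofibroblasts, and DESeq2 passed it in 9 classes.

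Hsp90aa1 and Hsph1 each passed in 10 of 16 classes, with DESeq2 in 6 and 3 classes. For Hsp90aa1 the log2 fold was lowest in general capillary endothelium, at 317 CPM in cells, against 169 and 181 CPM in nuclei (log2 fold 0.87, edgeR adjusted p = 0.136). It was highest in ciliated cells, at 1656 CPM in cells, against 274 and 258 CPM in nuclei (log2 fold 2.58, edgeR adjusted p = 2.64e-05). Hsph1 ran from a log2 fold of 0.99 in interstitial macrophages, which did not pass, to 2.38 in the class of T, NK and ILC2 lymphocytes. In that class Hsph1 had 119 CPM in cells, against 31.0 and 27.3 CPM in nuclei.

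Hspb1 was the member whose difference varied most with cell class. In aerocytes, the Car4- and Ednrb-expressing capillary cells of gas exchange, it had 254 CPM in cells, against 12.4 and 11.1 CPM in nuclei (log2 fold 4.31, edgeR adjusted p = 2.23e-21). Mesothelial cells, with 266 CPM in cells against 34.2 and 17.4 CPM in nuclei, and alveolar fibroblasts, with 152 CPM in cells against 18.3 and 8.14 CPM in nuclei, had log2 folds of 3.51 and 3.41. In 3 leukocyte classes the level in cells did not lie above both nucleus libraries. Alveolar macrophages had 14.0 CPM in cells, against 25.1 and 7.08 CPM in nuclei, T, NK and ILC2 lymphocytes had 23.8 CPM in cells, against 29.9 and 19.7 CPM in nuclei, and neither passed. B cells had 18.5 CPM in cells, below both the 34.7 and the 28.4 CPM in nuclei (log2 fold -0.43 ± 0.69 SE, edgeR adjusted p = 0.737). Hspb1 passed in 9 of 15 tested classes in all, and the difference in its change between classes was not tested.

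In pericytes 0 genes passed edgeR in either direction, with a smallest adjusted p of 0.125 (3103 genes at an unadjusted p under 0.05, and 538 genes by DESeq2). All 10 members had more CPM in pericytes of the cell library than in those of either nucleus library. Of these, 9 had an unadjusted edgeR p under 0.05, as did 16.7% of all genes in that direction, and DESeq2 passed 6, against 4.35% of all genes. Without pericytes 133 of 148 pairs were higher. Some classes rest on different clusters in the preparations: interstitial macrophages of the cell library formed a cluster led by C1qa, C1qb and C1qc and those of nuclei one led by F13a1, Aoah and St18, and dendritic cells fell into clusters led by Cd209a, Timd4 and Il12b in cells and by Gm36723 and Gm16553 in nuclei.

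**Figure D2:**
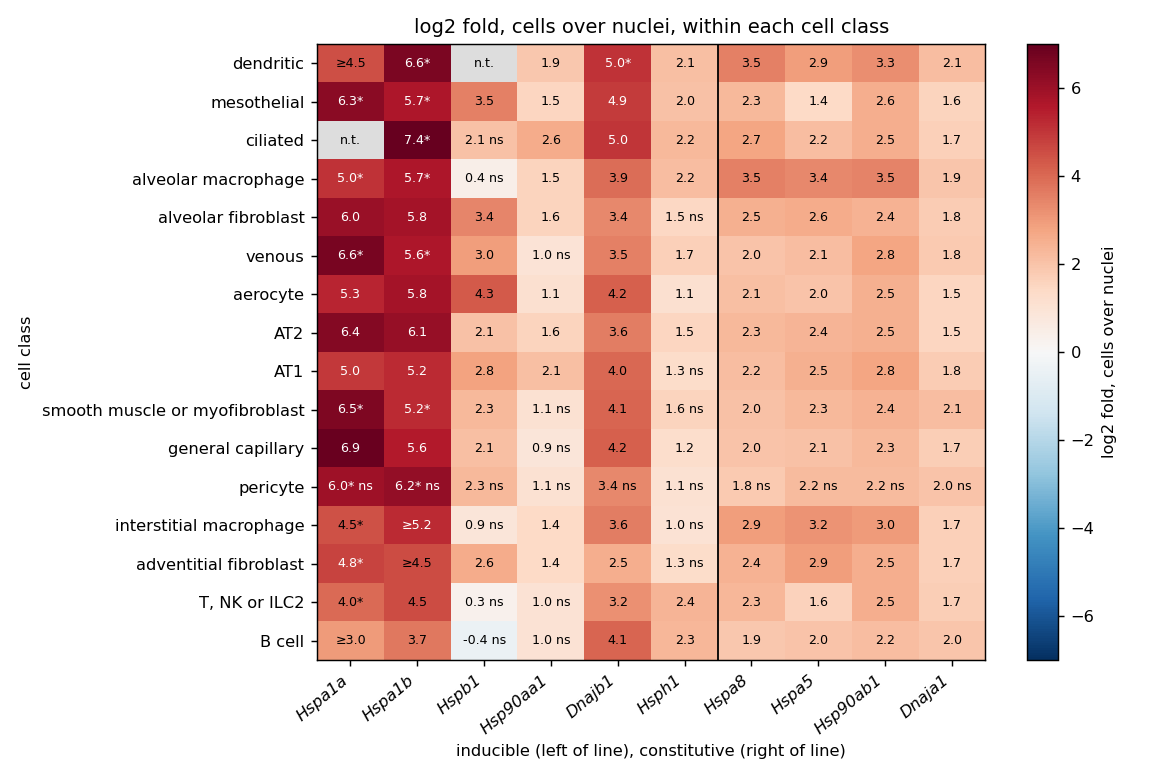
log2 fold of cells over nuclei for each chaperone (columns, inducible left of the line) in each of 16 cell classes (rows). Numbers are edgeR log2 folds, ≥ marks a lower bound against 3 counts where both nucleus libraries had none, * a plain ratio where they had 1 to 3 counts, ns an edgeR adjusted p of 0.05 or more, and n.t. a pair not tested. The columns of Hspa1a and Hspa1b are the darkest, Hspb1 changes most down the column, and its value of -0.43 in B cells is the only one below 0.

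The inducible members took a smaller share of all member counts in cells than in nuclei. Their share was 26.0% in cells (exact binomial 95% interval 25.8 to 26.3%, counting error only), against 34.4% and 35.8% in nuclei 1 and 2. It lay below both nucleus libraries in 13 of 16 classes and above both in aerocytes, ciliated cells and mesothelial cells. In each class where it lay above both, the interval of cells overlapped that of nuclei 1. Such overlap was also seen in some of the 13, such as AT1 and AT2 (type 1 and type 2 pneumocytes). Of these 16 classes, alveolar macrophages had the lowest share, at 17.1% in cells, against 35.5% and 35.7% in nuclei. Ciliated cells had the highest share, at 52.4% in cells, against 49.4% and 46.5% in nuclei. Plasma cells, with too few nuclei to be among the 16, had 14.6% in the cell library. With 1 library against 2 an exact permutation test could not go below p = 0.333, so this difference was not tested.

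The direction of that share rested on Hsp90aa1, which holds most of the inducible counts. Counted with the constitutive members instead, the share of the other 5 inducible genes was 12.7% in cells, against 9.95% and 6.35% in nuclei, which turns the direction round. Ratios between an inducible gene and its constitutive relative moved in opposite ways. Within the cytosolic HSP70 genes, Hspa1a and Hspa1b together had 0.248 counts per count of Hspa8 in cells, against 0.0334 and 0.0134 in nuclei, and this ratio was higher in cells than in both nucleus libraries in 16 of 16 classes. Within the J-domain genes, Dnajb1 had 0.275 counts per count of Dnaja1 in cells, against 0.0641 and 0.0596 in nuclei, and was above both in 15 of 16 classes. Within the HSP90 genes, Hsp90aa1 had 0.426 counts per count of Hsp90ab1 in cells, against 1.07 and 1.21 in nuclei, and was below both in 15 of 16 classes.

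**Figure D3:**
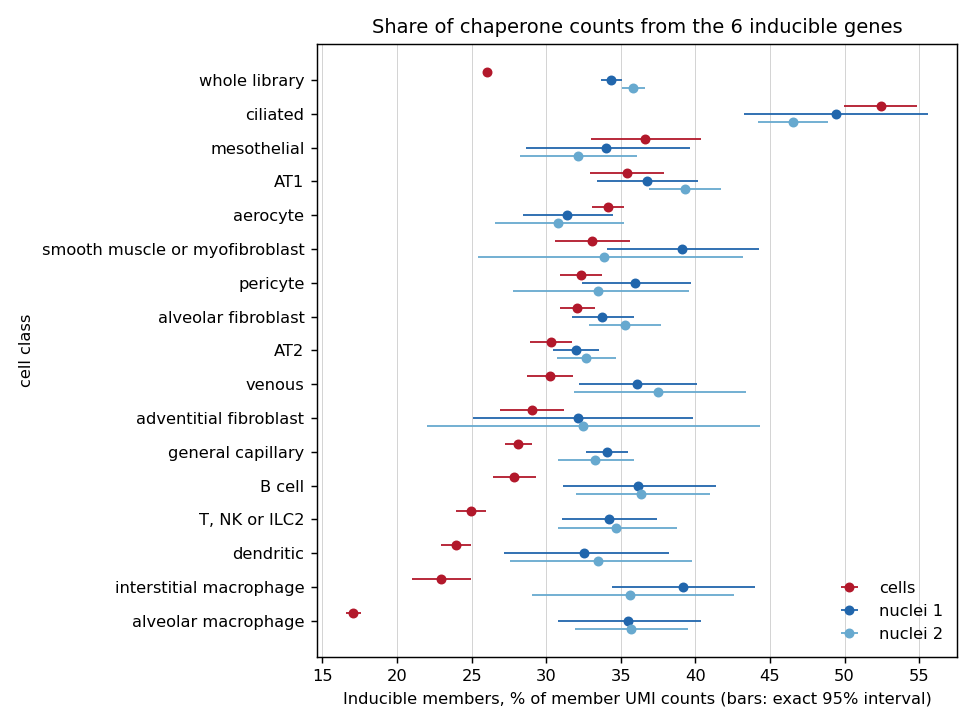
Share of all chaperone UMI counts taken by the 6 inducible genes, in percent, for each class and for whole libraries, with cells (red) above nuclei 1 and nuclei 2 (blues), and bars for exact binomial 95% intervals. Red points lie left of both blue points in 13 classes and furthest left in alveolar macrophages (17.1%), and ciliated cells stand apart at 52.4% in cells.

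Across the 21 classes of the cell library each chaperone had its own pattern, described here from 1 library with exact Poisson 95% intervals that cover counting error only. Ciliated cells had the highest Hsp90aa1 at 1656 CPM (1527 to 1792), against 626 CPM (562 to 696) in AT1, the next class, and 225 CPM in plasma cells, the lowest. They also had the highest Hsph1, at 384 CPM (323 to 452) against 159 CPM (138 to 181) in B cells, and the highest Dnajb1, at 165 CPM (126 to 212) against 105 CPM (68.4 to 153) in mesothelial cells. The Hspa1a level of ciliated cells, 32.4 CPM, was in contrast under the median class, which had 70.3 CPM.

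Plasma cells, which secrete antibody, were the class of Hspa5, at 1473 CPM (1396 to 1554) against 465 CPM (450 to 481) in alveolar macrophages, the next class. They had the lowest level of Hspa1a (15.3 CPM), Hsp90aa1, Dnajb1 (55.7 CPM), Hsp90ab1 (540 CPM) and Dnaja1 (157 CPM). Hspa8 was highest in alveolar macrophages, at 838 CPM (818 to 860), followed by 801 CPM (726 to 881) in proliferating cells of all lineages, 763 CPM in monocytes and 715 CPM in dendritic cells, against 309 CPM (264 to 359) in AT1, the lowest. Hsp90ab1 ran from 1156 CPM in dendritic cells to 540 CPM in plasma cells, and the intervals of dendritic cells, interstitial macrophages (1136 CPM) and ciliated cells (1091 CPM) overlapped. Dnaja1 varied little outside plasma cells, from 355 CPM in T, NK and ILC2 lymphocytes to 212 CPM in alveolar macrophages.

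Smooth muscle or myofibroblasts, pericytes and aerocytes were among the 4 highest classes for both Hspa1a and Hspa1b, and alveolar macrophages were among the 2 lowest for both. Hspa1a had 126 CPM (96.6 to 161) in smooth muscle or myofibroblasts, 124 CPM (107 to 142) in pericytes and 121 CPM (108 to 135) in aerocytes, and their intervals overlapped. Alveolar macrophages had 17.6 CPM (14.7 to 20.9) and plasma cells 15.3 CPM (8.37 to 25.7). Hspa1b had 182 CPM (151 to 218) in adventitial fibroblasts and 27.3 CPM (23.7 to 31.4) in alveolar macrophages. Over the 21 classes the levels of Hspa1a and Hspa1b had a Pearson correlation of 0.83 and those of Hsp90aa1 and Hsph1 of 0.69, whereas Hspa8 and Hspb1 had -0.63. The classes share a library, and any reads assigned to the wrong Hspa1 copy would enter the first value.

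Hspb1 had the widest range, from 266 CPM (206 to 338) in mesothelial cells and 254 CPM (236 to 274) in aerocytes to 4.32 CPM in neutrophils, where it had 2 counts. General capillary endothelium, the other capillary class, had 81.0 CPM.

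**Figure D4:**
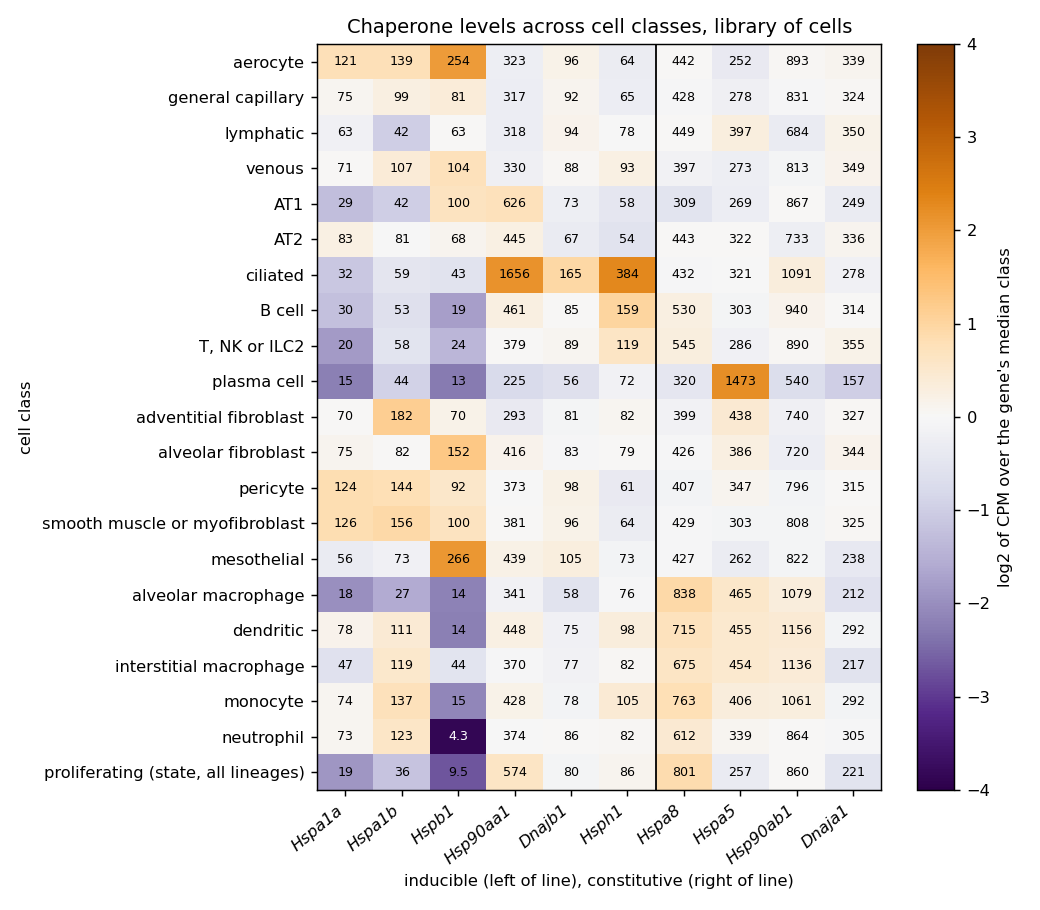
Level of each chaperone (columns) in each of 21 classes (rows) of the library of cells. Numbers are CPM and colours the log2 ratio to the median class of that gene, with orange above and purple below it. Ciliated cells stand out for Hsp90aa1 (1656 CPM) and Hsph1, plasma cells for Hspa5 (1473 CPM), and Hspb1 divides mesothelial cells and aerocytes from leukocytes.

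In nuclei the order of classes was mostly unresolved. Of 16 pairs of neighbouring classes in the order of each gene, the ranges of the 2 nucleus libraries overlapped in 13 for Hsp90aa1, Hspa5 and Hsp90ab1, in 15 for Dnaja1 and in 16 for the other 6 members. Among the 17 classes with at least 50 barcodes in both nucleus libraries, and by the mean of the 2, B cells had the highest nuclear Hsp90aa1, at 278 and 291 CPM in nuclei 1 and 2, followed by ciliated nuclei at 274 and 258 CPM. Ciliated nuclei had the highest Hsph1, at 139 and 45.4 CPM, values far apart in the 2 libraries. AT1 nuclei had the lowest mean of Hspa8 (70.4 and 46.4 CPM), Hspa5, Hsp90ab1 and Dnaja1. They also had the lowest mean of Hsp90aa1, at 120 and 127 CPM, but in nuclei 2 adventitial fibroblasts were lower, at 94.9 CPM.

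To see whether levels rested on few cells, each barcode was thinned to 1000 UMIs, which left out 253 barcodes of nuclei 2 and none elsewhere. A UMI of Hspa1a or Hspa1b was then found in 11.6% of cells (exact binomial 95% interval 11.03 to 12.2%), against 0.340% of nuclei 1 (0.216 to 0.510%) and 0.105% of nuclei 2 (0.0502 to 0.192%). Unthinned shares were 26.3% in cells, against 1.52% and 0.245% in nuclei, over the same barcodes. Among classes of the cell library the share ran from 3.75% in alveolar macrophages (2.995 to 4.62%) to 21.2% in pericytes (17.7 to 24.98%), at unthinned median depths of 3251 and 3045.5 UMIs. After thinning, up to 7 UMIs of the pair were found in 1 barcode, in monocytes. Hspa1b was detected in 19.7% of cells with an Hspa1a UMI and in 6.60% of cells without. Both shares pool all classes, over which the levels of these genes were correlated (Pearson correlation 0.83). Any reads assigned to the wrong copy would add to the first share. No lung class is known to lack these genes, so no share here marks the level that free RNA alone would give.

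Hspb1 was detected in 23.1% of aerocytes (20.4 to 26.0%) and in 0.625% of neutrophils (0.0158 to 3.43%), the class with least. Hsp90aa1 was detected in 72.1% of ciliated cells (63.3 to 79.9%), against 31.2% of all cells, and Hspa5 in 67.1% of plasma cells (60.7 to 73.1%), against 29.1% of all cells. The high levels of these members in aerocytes, ciliated cells and plasma cells were thus spread over many barcodes.

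Genes outside the chaperone lists were ranked by how closely their levels over the 21 classes of cells followed the mean of each group, among 8613 genes with at least 50 CPM in some class. The members of a group did not share a common pattern. Pearson correlations between inducible members ran from -0.33 (Hspa1a and Hsph1) to 0.83 (Hspa1a and Hspa1b). Those between constitutive members ran from -0.60 (Hspa5 and Dnaja1) to 0.67 (Hspa8 and Hsp90ab1). St3gal2 (Pearson correlation 0.87), Synm (0.86), Mtus1 (0.86), Aldh2 (0.85) and Tnks (0.84) came closest to the inducible members. Over the 17 classes of nuclei their correlations were 0.31, 0.20, 0.19, 0.54 and -0.28. Pi4k2a (0.86), Otulinl (0.84), Ubash3b (0.84), Pitpna (0.83) and Ryr1 (0.83) came closest to the constitutive members, with -0.03, 0.22, 0.40, 0.28 and 0.41 over the classes of nuclei. None of the 10 correlations reached 0.6 in nuclei.

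The other genes of the chaperone system are given by list for whole libraries only, against 16.4% of all genes higher and 8.42% lower. Different shares of cell classes between preparations enter these values, and their part was not tested. Chaperonins, the barrel-shaped folding machines, had 7 of 9 tested genes higher in cells and 0 lower, with a median log2 fold of 1.74. Hspe1 and Hspd1 of the mitochondrial chaperonin had 149 and 84.8 CPM in cells, against 28.2 and 17.1 CPM and 26.2 and 21.96 CPM in nuclei (log2 folds 2.87 and 1.97, edgeR adjusted p = 0.00734 and 0.00993). Cct5 and Cct2, subunits of the cytosolic chaperonin, had log2 folds of 2.53 and 2.03 (edgeR adjusted p = 0.00452 and 0.00726).

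Of the chaperones and response genes of the endoplasmic reticulum, 14 of 20 were higher and 0 lower, with a median of 1.41. Calr, a chaperone for glycoproteins, had 387 CPM in cells, against 43.5 and 56.5 CPM in nuclei (log2 fold 3.13, edgeR adjusted p = 0.00447). The stress transcription factors Atf4 and Ddit3 had log2 folds of 3.06 and 2.39 and the secreted factor Manf 2.56 (edgeR adjusted p = 0.00571, 0.00652 and 0.00522). Atf6, a sensor of that compartment, had 159 CPM in cells, against 237 and 210 CPM in nuclei, and did not pass (chosen after its values were seen).

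Heat shock factors and their regulators had 4 of 11 higher and 0 lower, with a median of 0.53. Hsf1 itself had 108 CPM in cells, against 49.0 and 56.4 CPM in nuclei (log2 fold 1.21, edgeR adjusted p = 0.0324). Hsbp1, a small binding protein of HSF1, and the HSP70 exchange factor Bag1 were 3.97- and 2.83-fold higher (edgeR adjusted p = 0.00849 and 0.0162). Bag5, a further exchange factor, had a log2 fold of 2.26 (edgeR adjusted p = 0.0121). Bag3, also an exchange factor, had 61.98 CPM in cells, against 55.4 and 39.8 CPM in nuclei, and did not pass (chosen after its values were seen).

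HSP90 co-chaperones had 4 of 14 higher, Cdc37 with a log2 fold of 1.77, Unc45a with 1.55, Ahsa1 with 1.41 and Fkbp4 with 1.23 (edgeR adjusted p = 0.0101, 0.0161, 0.0234 and 0.0305), 0 lower, and a median of 0.54. Scaled by library totals only, 2 of them passed. Other HSP70 genes had 2 of 10 higher, the mitochondrial Hspa9 with a log2 fold of 1.66 and Hspa13 with 1.72 (edgeR adjusted p = 0.0201 and 0.0178), 0 lower, and a median of 0.59. Other DnaJ genes had 4 of 23 higher, 1 lower and a median of 0.33, and 2 and 1 higher under DESeq2 and library totals. The share of this list that was higher lay near that of all genes (16.4%), so no pattern is read from it. Dnajb9, Dnajb11 and Dnajc3, of the endoplasmic reticulum, had log2 folds of 3.32, 1.27 and 1.19 (edgeR adjusted p = 0.00484, 0.0374 and 0.0391). The other gene higher in cells, Dnajc8, had 1.15 (edgeR adjusted p = 0.0472, named after its values were seen). Dnajb11 and Dnajc8 did not pass under DESeq2 (adjusted p = 0.0513 and 0.0628). Dnajc6, which uncoats clathrin vesicles, was lower (6.76 CPM in cells, against 18.7 and 24.1 CPM in nuclei, log2 fold -1.49, edgeR adjusted p = 0.0349).

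Small heat shock proteins other than Hspb1 had 0 of 7 tested genes past the threshold in either direction with edgeR, 0 with DESeq2, and a median of -0.77. Hspb2, Hspb6, Hspb7 and Cryaa had at most 4.78 CPM in any library, and DESeq2 gave no adjusted p for Hspb7 and Cryaa. The better expressed genes went both ways, with log2 folds of 0.90 for Cryab, -0.77 for Hspb8 and -1.04 for Hspb11. The list thus says little about the family. Immediate early genes, which are induced within minutes of many stimuli, had 12 of 12 higher and a median of 4.67. Fosb had 590 CPM in cells, against 0.433 and 0.590 CPM in nuclei, Fos 732 against 3.75 and 3.83, Egr1 899 against 3.43 and 7.19, and Junb 1688 against 13.4 and 20.8 (edgeR adjusted p = 0.0025 for each). Their summed level in classes of the cell library ran from 3845 CPM in plasma cells to 12665 CPM in smooth muscle or myofibroblasts, and its part in the chaperone differences was not tested.

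**Figure D5:**
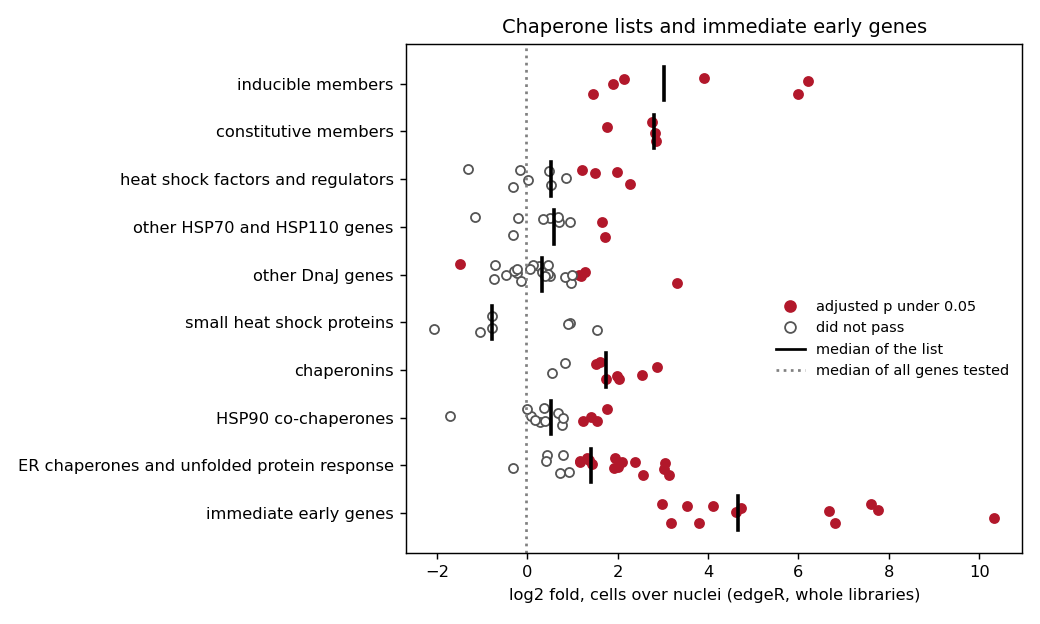
log2 fold of cells over nuclei in whole libraries for every tested gene of each list, filled where the edgeR adjusted p was under 0.05 and open where it was not, with the median of each list (black) and of all genes tested (dotted, -0.03). Both member lists and the immediate early genes lie wholly right of the dotted line, chaperonins also do, and the small heat shock proteins lie on both sides of it.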

How the data were processed

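Lung cells (1 library) and nuclei (2 libraries) were grouped by the labels. The authors deposited whole-number UMI counts per gene and barcode, aligned with STAR 2.5.3a to mm10 per the submitters' processing notes. For annotation, strand and intronic reads the settings were not given in the sources used here. No deposited barcode held over 2999 genes.

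Barcodes were kept at 400 or more genes and less than 20% of counts from mitochondrial genes (11934 cells, 6760 and 9806 nuclei), after removal of 81 called doublets from nuclei 1. The caller marked under 0.5% elsewhere and was not taken to have worked there, so doublets may remain. Each table was clustered without chaperone genes (scanpy 1.11.5, leidenalg 0.10.2) and clusters were named from at least 3 markers, or left mixed or unnamed. Counts were summed per library and class and tested with edgeR 4.0.16 (R 4.3.3, TMM scaling, filter on low counts), with DESeq2 1.42.0 as an alternative. On simulated data for whole libraries, 19426 genes, edgeR recovered 16%, 86% and 98% of 2-, 4- and 8-fold changes and made 163 calls, 13 of them false. The simulation set the same spread for every gene and library and changed only genes above a minimum count. These figures are therefore not the error rate of the real comparison. Positions come from GENCODE vM21 and promoters from RefSeq. Intervals and floors (3 counts) cover counting error only. Members, lists and markers were chosen with earlier results of these data known. Of each list, the up to 4 genes with the largest absolute log2 fold were named, among those with an edgeR adjusted p under 0.05, at least 20 CPM in 1 group and a change in the same direction against each nucleus library. Genes of like pattern were the 5 with the highest Pearson correlation with each group's mean log2(CPM + 1).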

Additional observations from a re-analysis of the deposited data

Results flagged for a closer look

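Only in B cells was the level of Hspb1 below both nucleus libraries (18.5 CPM in cells, against 34.7 and 28.4 CPM in nuclei). This rests on 25 counts in cells, against 12 and 13 in nuclei, and did not pass (log2 fold -0.43 ± 0.69 SE, edgeR adjusted p = 0.737). Hspb1 was above both in 13 of 16 classes, and between them in alveolar macrophages and in T, NK and ILC2 lymphocytes. The inducible share of chaperone counts was above both nucleus libraries in 3 classes (aerocytes, ciliated cells and mesothelial cells) and below both in the other 13. Neither difference between classes was tested.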

How the results depend on the processing

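All 10 members were higher in cells under DESeq2, library totals only, no filter, all deposited barcodes, thinning to 1000 UMIs, removal of all called doublets, and, chosen after seeing the data, named classes only. Leaving out either nucleus library left 10 members at least 2-fold higher, and 139 to 153 pairs of a member and a class at least 2-fold higher. The inducible share differed by -9.07 percentage points between cells and nuclei, by 4.56 with Hsp90aa1 counted as constitutive and by -14.97 with Dnaja1 counted as inducible. Other DnaJ genes higher in cells numbered 2 under DESeq2 and 1 under library totals only, where 2 HSP90 co-chaperones were higher; the cause was not tested. Scaling by library totals only moved the median log2 fold of all genes to -0.20. No paired analysis was possible because there was 1 library of cells. The small nuclear counts of Hspa1a and Hspa1b limit their fold changes within classes.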

Other observations

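Fkbp5, an HSP90 co-chaperone, had 47.0 CPM in cells, against 291 and 42.2 CPM in nuclei 1 and 2, so nuclei 2 lay close to the cells and nuclei 1 far above both (chosen after its values were seen).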
